A study of Mus musculus with 6 samples.

Results

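The 6 genes described here belong to the red blood cell lineage and were followed array by array in mouse brain: the haemoglobin genes Hba-a1, Hba-a2 and Hbb-b1, the haem synthesis genes Alas2 and Fech, and Slc4a1, which encodes the anion exchanger of the red cell membrane. Members were all non-control rows of the array files whose gene name is one of these, which gave 6 probes, 1 per gene, of 39429 probes under 29608 gene names. Brain RNA came from male mice with a C57BL/6N background. By their labels 3 samples were wild type and 3 were Pla2g2e-/-, a knockout of a secreted phospholipase A2. Titles call all 6 samples sham-operated, whereas the treatment text given for all 6 describes a middle cerebral artery occlusion of 60 min, and groups here follow the titles. The labels give neither the age of the mice, nor the deleted part of the gene, nor whether blood was flushed from the vessels before the tissue was taken, nor whether the samples of a group came from separate animals. A p-value here is thus set by the spread of 3 samples a group, and that spread may be technical. The 2 Pla2g2e probes were near the lower end of the arrays. They read -9.20 to -8.55 and -7.31 to -6.73 in wild type, and -8.51 to -8.45 and -7.94 to -7.11 in knockout. Both were well above background on all 3 knockout arrays. In wild type the first was so on 2 of 3 arrays and the second on all 3. Since the deleted part is not given, the 2 probes do not check the genotype labels.

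Adult haemoglobin is a tetramer of α-globin and β-globin chains, each holding a haem group that binds oxygen. Haem is made by a chain of enzymes shared by all cells, in which the first step is run by Alas2 in erythroid cells and by Alas1 elsewhere, and the last step, the insertion of iron, by Fech. Red cells that have just entered the circulation still hold globin and Alas2 transcripts, so brain tissue with blood in its vessels carries them, and globin transcripts have also been found in neurons and glia themselves. In bulk tissue RNA, fewer cells of a type and less RNA per cell cannot be told apart.

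The probes differ in how far they separate near-identical genes, and their sequences show what each can measure. The Hba-a1 probe (chr11:32183955-32184014 of mm9, the build in the file headers) and the Hba-a2 probe (chr11:32197245-32197304) each list the RefSeq transcripts of both Hba-a1 and Hba-a2, so the pair gives 2 readings of α-globin and not 1 for each gene. The Hba-a2 probe holds the polyadenylation signal AATAAA at its base 38. The Hbb-b1 probe (chr7:110976379-110976438) lists the transcripts of Hbb-b1 and of Hbb-bs, the latter being the β-globin gene of the C57BL/6 haplotype in RefSeq, and its first 46 bases match the start of the RefSeq Hbb-bs transcript. The probes of Alas2 (chrX:147004993-147005052), Fech and Slc4a1 (chr11:102210256-102210315) each list 1 gene. No gene annotation of mm9 was used, so exon and untranslated region are not given for them. Over the 10 pairs of the Hba-a1, Hba-a2, Hbb-b1, Hbb-b2 and Hbb-bt probes, the longest identical run was between 4 and 7 bases. The longest identical run does not measure likeness over whole probes, which was not measured. An α-globin and a β-globin probe are shown, with a run of 5 bases that both hold in capitals. The greatest length they share, here and elsewhere in the pair, is 5, and bases beside this run also match in part:
Hba-a1 probe: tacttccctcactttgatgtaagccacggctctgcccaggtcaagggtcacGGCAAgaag
Hbb-b2 probe: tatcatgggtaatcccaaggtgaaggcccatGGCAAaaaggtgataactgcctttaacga

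Globin transcripts differed more between single samples than between genotypes. Levels are given as log2 of the processed signal minus the array's 75th percentile, so a value of 0 is a signal at that percentile. The Hba-a1 probe read 3.41, 1.52 and 1.72 in wild-type samples 1 to 3, and -0.25, 3.81 and 0.72 in knockout samples 1 to 3. The highest array of each genotype, wild-type 1 and knockout 2, stood far above the other 4, and the lowest was knockout 1, 16.6-fold under knockout 2. Wild-type samples alone spanned 3.71-fold and the knockout samples 16.6-fold. The groups overlapped: wild type averaged 2.21 ± 1.04 and knockout 1.43 ± 2.12 (SD, n = 3 each).

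The Hba-a2 probe, the other α-globin reading, gave 5.44, 3.72 and 4.15 in wild-type samples 1 to 3 and 2.39, 5.81 and 3.02 in knockout samples 1 to 3. It placed the arrays in the same order as the Hba-a1 probe, over a 10.6-fold range. The Hbb-b1 probe for β-globin read -0.26, -2.86 and -2.46 in wild-type samples 1 to 3 and -4.27, -0.10 and -3.42 in knockout samples 1 to 3. That order was again knockout 2, wild-type 1, wild-type 3, wild-type 2, knockout 3 and knockout 1, over an 18.1-fold range. Group means were 4.44 ± 0.89 and 3.74 ± 1.82 for Hba-a2, and -1.86 ± 1.40 and -2.60 ± 2.21 for Hbb-b1 (wild type and knockout, SD, n = 3 each), and both groups overlapped for each probe.

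Alas2, the erythroid enzyme that starts haem synthesis, followed the globins. It read -2.33, -4.32 and -3.60 in wild-type samples 1 to 3 and -5.22, -1.94 and -4.84 in knockout samples 1 to 3, which is the same order of the 6 arrays over a 9.70-fold range. Groups overlapped, at -3.42 ± 1.01 and -4.00 ± 1.79 (SD, n = 3 each). This range depended on the background correction and was 5.56-fold after normexp with an offset of 50. The Hbb-b1 range also narrowed with normexp, to 13.2-fold, below Hba-a1 at 16.6-fold, while Hba-a2 spanned 10.5-fold. For Alas2 the order stayed the same after normexp, quantile normalization and median centring, as it did for the 3 globin probes.

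**Figure D1:**
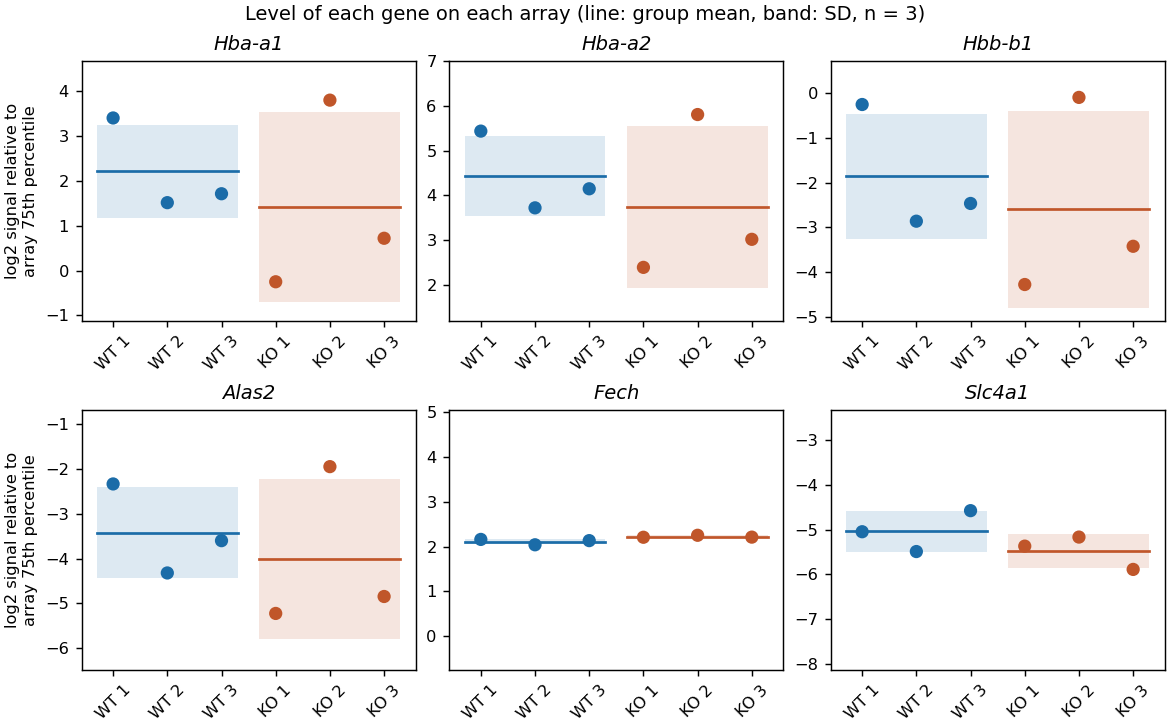
Log2 level above or below the array's 75th percentile (y axis) of each of the 6 genes on each array (x axis), wild type in blue and knockout in orange, with the group mean as a line and ± SD (n = 3) as a band. All panels span the same number of log2 units. Wild-type 1 and knockout 2 are the highest arrays of their groups for the globins and Alas2, while Fech is nearly level.

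Neighbours in this order were not equally far apart. Between wild-type 1 and wild-type 3 the level dropped by 1.69 log2 units for Hba-a1, 1.29 for Hba-a2, 2.21 for Hbb-b1 and 1.27 for Alas2. Knockout 2 and wild-type 1 were closer, with gaps of 0.40, 0.37, 0.16 and 0.39, as were wild-type 3 and wild-type 2, with gaps of 0.20, 0.43, 0.40 and 0.72. For scale, signals of the 399 probes that have 10 spots varied within an array by a median of 4.17% to 4.80% (coefficient of variation). Each array measured 1 sample once, so a gap between 2 arrays has no replicate error of its own.

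Fech, the enzyme that closes haem synthesis in every cell type, did not vary in this way (probe at chr18:64616928-64616987). It read 2.16, 2.04 and 2.13 in wild-type samples 1 to 3 and 2.21, 2.25 and 2.21 in knockout samples 1 to 3, a range of 1.16-fold. All 3 knockout arrays were above all 3 wild-type arrays, by a mean of 0.11 ± 0.06 (SE), or 1.08-fold. The separation is no test result: limma gave an adjusted p of 0.516, and 7.46% of all probes with 6 values were separated upwards in this way (19.4% in either direction).

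Slc4a1, whose product exchanges chloride and bicarbonate across the red cell membrane, was dim and followed another order. It read -5.05, -5.49 and -4.57 in wild-type samples 1 to 3 and -5.37, -5.16 and -5.89 in knockout samples 1 to 3, each time well above background. Wild-type 3 was highest and knockout 3 lowest, 2.48-fold apart (1.72-fold after normexp), and the groups overlapped. The order of its middle arrays moved with the scaling, whereas wild-type 3 and knockout 3 kept the ends in all 4 scalings tried.

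**Figure D2:**
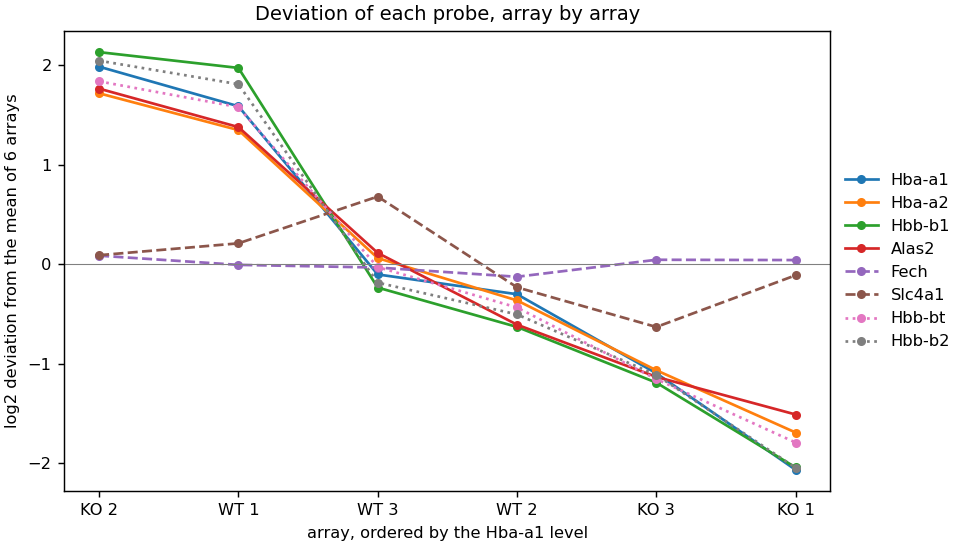
Log2 deviation of each probe from its own mean over the 6 arrays (y axis), with the arrays ordered by the Hba-a1 level (x axis). The 5 globin probes and Alas2 fall together from knockout 2 to knockout 1, and Fech (1.16-fold range) and Slc4a1 (2.48-fold range) do not.

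Genotype was then compared with limma over all 31954 probes tested, with Benjamini-Hochberg adjustment over them. None of the 6 genes passed the test between knockout and wild type: 0 of 6 reached an adjusted p of 0.05, as did 0 of all probes (0%), and 0 of 6 had an unadjusted p under 0.05, where 12.1% of all probes did (9.03% lower and 3.06% higher in knockout). The α-globin probes differed by -0.79 ± 1.11 and -0.70 ± 0.96 for Hba-a1 and Hba-a2 (log2, knockout minus wild type, SE, limma adjusted p = 0.792 and 0.786). Hbb-b1 differed by -0.74 ± 1.24 (adjusted p = 0.829 in limma) and Alas2 by -0.59 ± 0.97 (adjusted p = 0.826 in limma). For Hba-a1 the 95% interval of the difference ran from -3.52 to 1.94 and for Alas2 from -2.97 to 1.79, so a change of several-fold in either direction was not detectable with 3 samples a group. For Fech the interval was narrow, from -0.05 to 0.27. Slc4a1 differed by -0.44 ± 0.28 (limma adjusted p = 0.562), with an interval from -1.13 to 0.26.

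Over the 6 probes, 5 were lower and 1 higher in knockout with a median difference of -0.64, where 53.2% of all probes were lower and their median was -0.01. That median rested on knockout 1: without it the differences were 0.05 for Hba-a1, -0.02 for Hba-a2, 0.10 for Hbb-b1 and 0.02 for Alas2, and the median was 0.04. Without wild-type 1 the same 4 differed by -0.19, -0.20, 0.07 and -0.05, with a median of -0.12 over the 6 probes, and without knockout 2 by -1.98, -1.73, -1.99 and -1.62, with a median of -1.67. Without wild-type 2 the median was -1.05, and without knockout 3 it was -0.28. Slide 1 held wild-type 1, 2 and 3 and knockout 1, and on that slide alone the 4 probes differed by -2.46, -2.04, -2.41 and -1.81. With the slide as a fixed block the values were the same, since knockout 2 and 3 lay on slide 2 with no wild-type array beside them. Those 2 knockout arrays held the highest and the second lowest globin levels of the series.

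**Figure D3:**
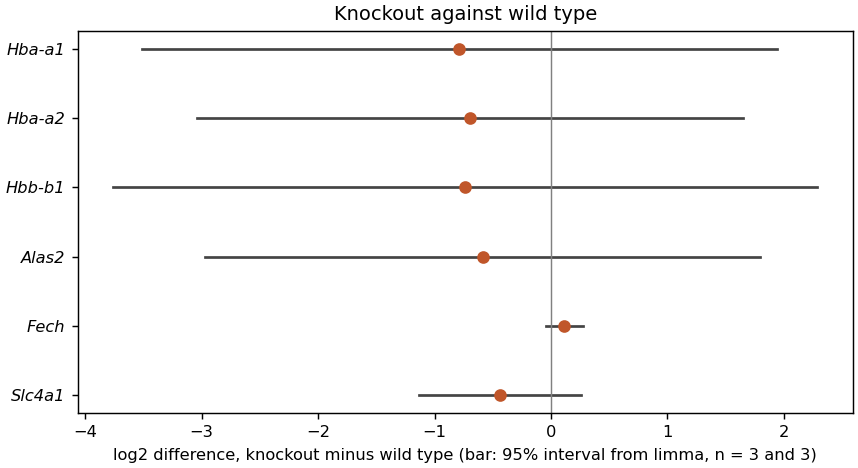
Log2 difference between knockout and wild type (x axis) for each gene (y axis), as the limma estimate with its 95% interval (3 arrays a group). The intervals of the 3 globins, Alas2, Fech and Slc4a1 all include 0, and Fech has the narrowest, from -0.05 to 0.27.

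Set against all other transcripts on the arrays, the globins and Alas2 were among the most variable. Over the 30496 probes well above background on all arrays, the median range between the highest and the lowest array was 1.30-fold, and 62 probes (0.203%) had a range at least as wide as Alas2. By SD over the 6 arrays Hbb-b1 ranked 14, Hba-a1 27, Alas2 49 and Hba-a2 50, whereas Slc4a1 ranked 2178 and Fech 25075. Within wild type alone Hbb-b1, Hba-a1, Alas2 and Hba-a2 ranked 78, 217, 243 and 337 by SD, and within knockout alone 5, 8, 14 and 13. The array order of Hba-a1 was shared by 32 probes (0.105%), and 6 of these also had a range at least as wide as Alas2. Those 6 were Hba-a1, Hba-a2, Hbb-b1, Hbb-b2, Hbb-bt and Alas2. Both criteria came from the members, the range limit being that of the narrowest among the member globins and Alas2. Hba-a1 thus met the order, and the member globins and Alas2 the range, by definition.

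**Figure D4:**
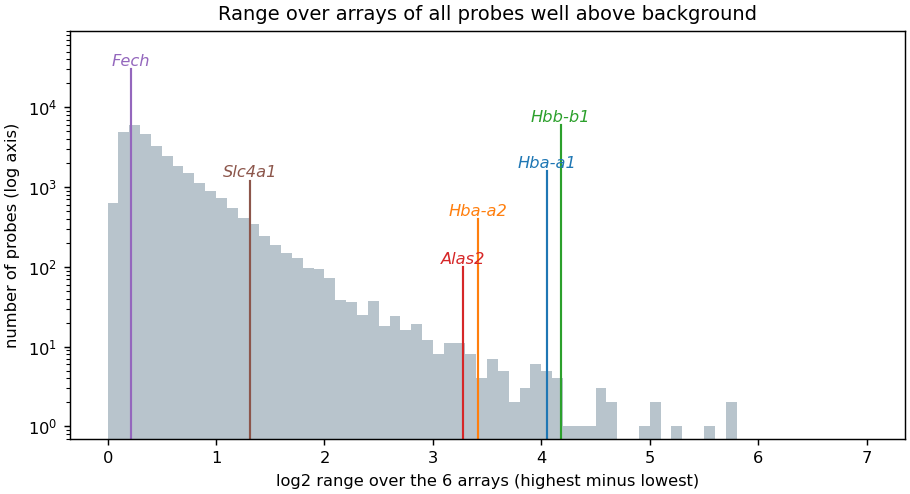
Number of probes (y axis, log axis) by log2 range over the 6 arrays (x axis) for the 30496 probes well above background on all arrays, with the 6 genes marked by lines whose heights carry no value. The globins and Alas2 lie in the far tail, at 3.28 or more, and Fech at 0.21.

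The remaining globin genes separated into adult β-globins, which moved with the 6 arrays, and the others. Of 12 listed names 10 were on the array and 9 were tested, with 1 higher and 8 lower in knockout, 0 past the adjusted threshold and a median difference of -0.32. Hbb-bt, the second β-globin of the C57BL/6 haplotype, read 2.94, 0.93 and 1.33 in wild-type samples 1 to 3 and -0.43, 3.20 and 0.21 in knockout samples 1 to 3. Hbb-b2, whose probe lists the transcripts of Hbb-b1 and Hbb-b2, spanned 17.1-fold in the same order. It lists neither β-globin of the C57BL/6 haplotype, so which gene this probe read here is not known. Cygb, or cytoglobin, a globin of fibroblast-like cells and some neurons, spanned 1.25-fold. Outside the naming rule and chosen after their values were seen, Ngb (neuroglobin of neurons) and Mb (myoglobin of muscle) differed by -0.32 ± 0.16 and -0.42 ± 0.11 (SE), with limma adjusted p of 0.460 and 0.295. Hba-x, the embryonic α-like gene, did not rise well above background anywhere.

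Likeness to the globins was measured as the root mean square difference, over the 6 arrays, between a probe's deviations from its own mean and the mean deviations of the Hba-a1, Hba-a2 and Hbb-b1 probes. That mean deviation was 1.64, -0.43 and -0.09 in wild-type samples 1 to 3 and -1.94, 1.95 and -1.12 in knockout samples 1 to 3. Hbb-bt, Hbb-b2 and Alas2 lay 0.08, 0.11 and 0.24 log2 units from it, Slc4a1 1.27 and Fech 1.39, where the median over all ranked probes was 1.39. Only 5 probes, all globins, were closer than Alas2, and 3 of those 5 define the mean itself. The 8 nearest genes that are no haemoglobin or member were Zfp46 at 0.62, Xlr4b at 0.85, Xlr4a at 0.85, Bpifa1 at 0.90, Ccl2 at 0.98, Pibf1 at 1.00, D330025C20Rik at 1.00 and H2-Q10 at 1.03. Their levels stayed between -8.58 and -3.77.

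The rest of the haem pathway stayed level. Of 12 haem synthesis and haem transport genes beside Alas2 and Fech, all were tested, 7 were higher and 5 lower in knockout, 0 passed the adjusted threshold, and the median difference was 0.01. Their median range over the arrays was 1.23-fold and the widest was 1.40-fold, in Cpox. Alas1, which starts haem synthesis outside erythroid cells, read 3.28, 3.18 and 3.06 in wild-type samples 1 to 3 and 3.32, 3.33 and 3.37 in knockout samples 1 to 3. Its groups did not overlap, with a difference of 0.17 ± 0.08 (SE, limma adjusted p = 0.444). Urod, which decarboxylates uroporphyrinogen, and Slc25a38, a mitochondrial glycine carrier, differed by 0.05 ± 0.10 and 0.01 ± 0.07 (SE).

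Genes that clear haem and haemoglobin were likewise level, apart from Hp. Of 14 listed genes 13 were tested, 8 higher and 5 lower, with 0 past the adjusted threshold and a median difference of 0.03. Fth1 and Ftl1, the ferritin chains that store iron, spanned 1.14-fold and 1.16-fold, and Hmox2, the constitutive haem oxygenase, 1.18-fold. Named after their values were seen, Hmox1, the inducible haem oxygenase, spanned 1.24-fold, and Hp, the plasma protein that binds free haemoglobin, spanned 5.81-fold. Hp was high on wild-type 1 and wild-type 3, at -2.21 and -2.72, and lowest on knockout 2, at -4.75, the array with the highest globins.

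Transcripts of the red cell skeleton and of erythroid maturation mostly had narrower ranges than the globins. Of 22 listed names for membrane and skeleton, which include older synonyms, 16 were tested: 6 were higher and 10 lower in knockout, 0 past the adjusted threshold, with a median difference of -0.08. Their median range was 1.44-fold and the widest was 4.87-fold, in the water channel gene Aqp1, which was highest on wild-type 3. Wild-type 1 and knockout 2 were the highest pair of arrays in 2 of the 16, Epb41 and Sptb, with ranges of 1.15-fold and 1.36-fold, or 12.5%, against 7.67% of all probes. Sptbn1, a spectrin of neurons and other cells, Tspan33, a tetraspanin, and Dmtn, an actin-bundling protein, spanned 1.09-fold, 1.35-fold and 1.23-fold. Rhag and Epb42, which mark erythroid cells and their precursors, did not rise well above background on any of the 6. Of 30 names for erythroid transcription factors and maturation, 28 were tested, with 9 higher, 19 lower, 0 past the adjusted threshold, a median difference of -0.09 and a median range of 1.38-fold, and wild-type 1 and knockout 2 were the highest pair in 1 of them. Bcl2l1 and Prdx2, among the brightest, are also made by brain cells and spanned 1.07-fold and 1.16-fold. Klf1, the transcription factor that drives adult β-globin, was at or under -7.43 throughout, Gata1 was well above background on 3 arrays, and Ahsp, the α-globin chaperone, spanned 3.00-fold with wild-type 3 highest, these 3 being named after their values were seen.

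Markers of other blood cells were set beside the globins. Of 25 listed neutrophil, monocyte and lymphocyte markers 21 were tested, 2 higher and 19 lower in knockout, 0 past the adjusted threshold, with a median difference of -0.40. Their median deviation was 0.24, -0.43 and 0.90 in wild-type samples 1 to 3 and -0.05, -0.34 and -0.25 in knockout samples 1 to 3, so that wild-type 3 was highest and knockout 2, highest for the globins, was below the mean. S100a9, a calcium-binding protein of neutrophils, read 2.24, 0.06 and 2.75 in wild-type samples 1 to 3 and 1.56, 0.64 and 0.58 in knockout samples 1 to 3. Csf3r, the receptor for granulocyte colony-stimulating factor, and Cd4, a marker of helper T cells and some myeloid cells, spanned 1.50-fold and 1.19-fold. The list as a whole varied widely between arrays: its median range was 3.24-fold, 11 of 21 markers (52.4%) spanned at least 3-fold, against 4.22% of all probes, and the widest, Lcn2, spanned 32.3-fold. In 0 of these 21 markers were wild-type 1 and knockout 2 the highest pair of arrays, against 7.67% of all probes. That pair was chosen because it is highest for the globins and Alas2, so the genes followed here are no comparison. Of 15 platelet and megakaryocyte markers 13 were tested, 2 higher and 11 lower, with a median difference of -0.24 and 1 with wild-type 1 and knockout 2 as the highest pair. Nrgn, also abundant in neurons, Pf4, a platelet chemokine, and Itgb3, an integrin of platelets, spanned 1.13-fold, 2.29-fold and 1.46-fold. Ppbp, another platelet chemokine, named after its values were seen, was highest on wild-type 3 and knockout 2, at -3.38 and -4.22, and was well above background on 2 of 3 knockout arrays. The part of these cells in the globin pattern was not tested.

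Markers of the tissue itself had narrower ranges than the globins. Of 16 endothelial markers 7 were higher and 9 lower in knockout, with a median difference of -0.07, and Egfl7, Slc2a1 and Ly6c1 spanned 1.27-fold, 1.30-fold and 1.41-fold. Wild-type 1 and knockout 2 were the highest pair in 2 of these 16 (12.5%) and in 2 of the 6 neuronal markers with a value on every array. Among all probes the share was 7.67%, with probes that lack a value counted as not so. The difference between these shares was not tested. The 6 neuronal markers with a value on every array, which check the brain label, spanned at most 1.29-fold, and Syt1, Snap25 and Eno2 read between 5.29 and 5.94. Among glia, the 6 astrocyte and 6 microglia markers had median deviations between -0.14 and 0.14 on every array. The median over the 6 oligodendrocyte markers was highest on wild-type 2 (0.64) and lowest on knockout 2 (-0.55). Mbp among them went another way: it was highest on knockout 1, and all 3 knockout arrays were above all 3 wild-type arrays. Its difference was 0.33 ± 0.09 (SE, limma adjusted p = 0.308), and 7.46% of all probes with 6 values were separated upwards. All 11 meningeal fibroblast markers were lower in knockout, with a median difference of -0.49, 0 past the adjusted threshold, and a median deviation of 0.64 on wild-type 3. The part of these tissue differences in the globin levels was not tested.

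**Figure D5:**
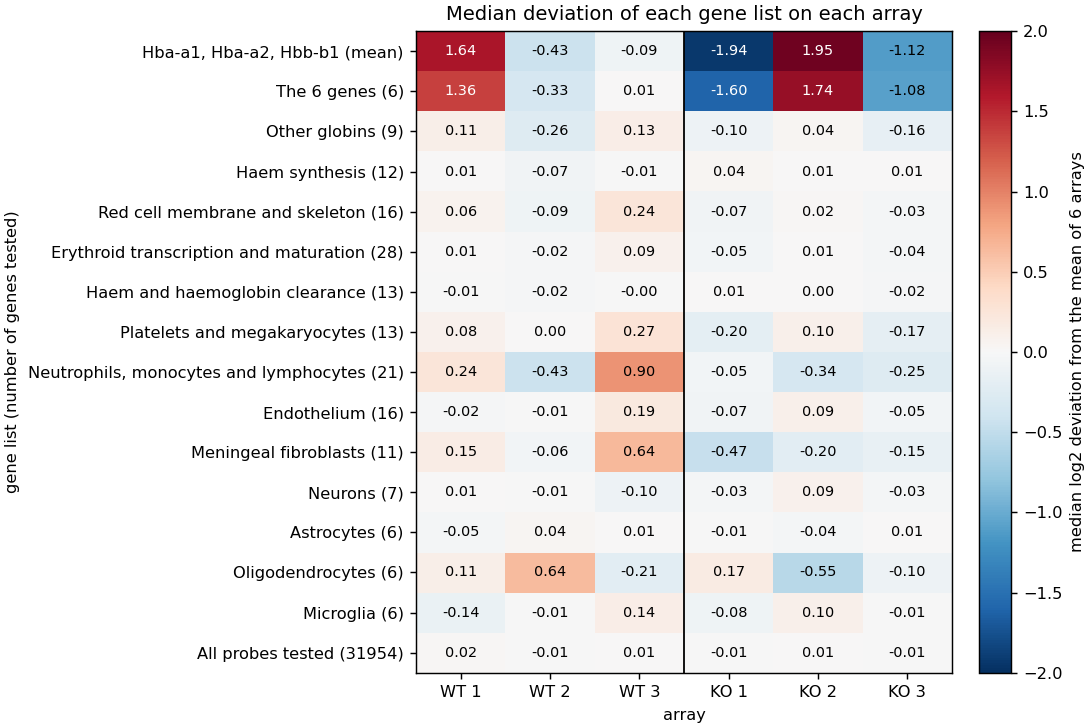
Median log2 deviation from the mean of the 6 arrays (colour and printed value) for each gene list (y axis, with the number of genes tested) on each array (x axis, wild type left of the line). The globin mean is the first line from the top. The globins are highest on wild-type 1 and knockout 2, at 1.64 and 1.95, whereas the neutrophil, monocyte and lymphocyte list is highest on wild-type 3, at 0.90.

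Promoter sequences of genes that moved together are shown for reference, since the probes read only transcripts. Each run holds the 250 bases before the RefSeq start site in GRCm38.p6, with matches in capitals to 4 motifs searched on both strands: GATAA, which erythroid GATA factors bind, CACCC, which Klf factors bind, the promoter element CCAAT, and the start site element ATATAA. The windows are chr11:32283422-32283671 on the plus strand for Hba-a1, chr7:103827929-103828178 on the minus strand for Hbb-bs, and chrX:150547167-150547416 on the plus strand for Alas2:
Hba-a1: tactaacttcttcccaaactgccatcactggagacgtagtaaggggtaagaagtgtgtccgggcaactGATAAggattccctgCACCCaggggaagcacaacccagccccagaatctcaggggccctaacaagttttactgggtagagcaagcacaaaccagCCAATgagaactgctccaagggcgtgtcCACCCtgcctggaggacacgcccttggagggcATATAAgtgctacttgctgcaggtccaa
Hbb-bs: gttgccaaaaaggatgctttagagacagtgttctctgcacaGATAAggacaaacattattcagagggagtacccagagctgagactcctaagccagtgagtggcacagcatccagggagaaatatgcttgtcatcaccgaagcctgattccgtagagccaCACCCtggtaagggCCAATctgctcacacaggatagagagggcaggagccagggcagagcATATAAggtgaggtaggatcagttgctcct
Alas2: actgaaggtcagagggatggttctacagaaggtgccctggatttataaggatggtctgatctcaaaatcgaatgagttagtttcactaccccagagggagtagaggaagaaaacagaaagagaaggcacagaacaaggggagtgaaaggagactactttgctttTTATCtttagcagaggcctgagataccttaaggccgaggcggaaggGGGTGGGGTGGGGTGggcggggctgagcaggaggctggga
Among 32851 promoter windows of that length in the table, 22.6% held GATAA, 52.0% CACCC, 33.8% CCAAT and 9.10% ATATAA, and 153 (0.466%) held all 4. The Hba-a1, Hba-a2, Hbb-bs and Hbb-bt windows held all 4. In Hba-a1 GATAA began at position -182 from the start site, CCAAT at -88 and ATATAA at -28, and in Hbb-bs they began at -209, -76 and -30. Aligned with an offset of 3 bases, the Hba-a1 and Hba-a2 entries were identical over 297 of 297 bases, which include the first bases after the start. The Alas2 window held GATAA on the minus strand from position -86, and 3 adjoining CACCC matches on the minus strand, with neither CCAAT nor ATATAA. Such matches describe the letters in these windows and say nothing of binding in brain or blood. Hbb-b1 has no entry of its own in the table, and Slc4a1 has none.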

How the data were processed

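Total RNA of 6 brain samples, 3 per genotype by their titles, was labelled with Cy3 (200 ng per sample, per the labels' protocols) and hybridised to Agilent arrays (design 026655, 1 colour), 1 sample to each. The deposited intensity of each spot came from Agilent Feature Extraction 12.1.1.1, per the file headers and the submitters' processing notes; the processed signal is background-subtracted and detrended within each array, and is not scaled between arrays. No header or label names a later step. On each array 82.0% to 85.3% of 43020 non-control spots were well above background and 0 were saturated. Precision is limited by the 3 arrays a group.

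Control spots (1377) and spots marked as non-uniform or population outliers (68 to 530 per array, 0 of them a member) were left out. The log2 processed signal minus the array's 75th percentile over non-control spots was averaged over spots of a probe. Tested probes had to be well above background throughout at least 1 group and have at least 2 values a group (31954 of 39429). Knockout and wild type were compared with limma 3.58.1 in R 4.3.3, two-sided, with Benjamini-Hochberg adjustment over all probes tested and a threshold of 0.05; the fit was tested on simulated data. An exact permutation test of 3 against 3 cannot go below p = 0.1 and was not used.

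The members and lists were chosen with earlier results of these data known. In each list the brightest tested probe stood for a gene, and the 3 brightest genes were named, beside the 8 genes most like the globins and genes picked after their values were seen, which are those so marked and Aqp1, Epb41, Sptb, Lcn2 and Mbp; some genes of the lists are not reported here. Counts in a list are of single genes, with no test of the list. Alternatives covered the background correction, scaling, filter, flagged spots, probe choice, slide, replicate numbers and leaving out each array. Promoter sequences and gene names of accessions are RefSeq's (GRCm38.p6), and no coordinates were moved between builds.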

Additional observations from a re-analysis of the deposited data

How the results depend on the processing

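The array order of Hba-a1, Hba-a2, Hbb-b1 and Alas2 was the same under 4 scalings or background corrections. Over these 4 the mean globin deviation ran from 1.87 to 2.01 on knockout 2. On wild-type 3 it ran from -0.22 to -0.09. No member passed limma's adjusted threshold in any of 17 alternatives: adjusted p ranged from 0.659 to 1.00 for Hba-a1, from 0.648 to 1.00 for Hba-a2, from 0.703 to 1.00 for Hbb-b1, from 0.672 to 1.00 for Alas2, from 0.297 to 1.00 for Fech and from 0.354 to 1.00 for Slc4a1. Over these alternatives the differences ran from -2.46 to 0.05 for Hba-a1, from -2.04 to -0.02 for Hba-a2, from -2.41 to 0.10 for Hbb-b1, from -1.81 to 0.02 for Alas2, from 0.08 to 0.23 for Fech and from -0.66 to -0.21 for Slc4a1. The sign turned without knockout 1 for Hba-a1 (0.050), Hbb-b1 (0.10) and Alas2 (0.022), and without wild-type 1 for Hbb-b1 (0.065). Over single arrays left out, the differences ran from -1.98 to 0.050 for Hba-a1, from -1.99 to 0.10 for Hbb-b1 and from -1.62 to 0.022 for Alas2. Probes called over the whole array numbered 0 in 16 of the 17 alternatives, and between 0 and 126 with single arrays left out, the 126 being without knockout 1, when each genotype lay on its own slide. At an unadjusted p under 0.05 there were 3863 probes in the fit reported and 1274 to 5300 over the alternatives. Of these 74.7% were lower in knockout, but 46.7% after quantile normalization and 28.5% after centring arrays on their median, by which the middle of all probe differences went from -0.01 to 0.11. The replicate numbers did not pair the samples (correlations of deviations -0.04, -0.15 and -0.10 for numbers 1, 2 and 3). With the replicate number as a block, 0 probes passed, 3334 had an unadjusted p under 0.05, and no member was called, with Hba-a1 at -0.79 as before.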
